A study of Homo sapiens with 7 samples.

Results

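The 10 coagulation genes described here are F2, F5, F7, F10, F11, F12, F13B, PROC, PROS1 and PLG, chosen by gene symbol. The choice was made with earlier results of these data known. All 10 were found in the expression table of HepG2, among 22113 named loci. HepG2 is a human liver cancer cell line grown in culture, and the labels name no treatment. The data are 7 samples, 1 per assay: RNA-Seq, native MNase-Seq of nucleosomes, and a ChIP-Seq library each for the marks H3K27ac, H3K9ac, H3K4me3, H3K9me3 and H3K27me3. There are no groups to compare and no replicate samples, so no P value was computed. RNA-Seq values were deposited in 2 columns, called run 1 and run 2 here and counted as 1 sample. Their unit was read from the layout of the table as FPKM, fragments scaled by transcript length and by the size of the library, and is not stated in the table itself. Whether the runs were separate cultures or repeated sequencing is not given in the sources used here. The genes encode plasma proteins of blood clotting and clot removal, and HepG2 is a single line, so nothing here was measured in normal liver.

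Blood clotting is a cascade in which inactive precursors of serine proteases, made mostly by hepatocytes and secreted into plasma, activate each other at sites of injury. The contact factors F12 and F11 start the intrinsic arm and F7 starts the extrinsic arm with tissue factor. Both arms meet at F10, which with its cofactor F5 turns prothrombin, the product of F2, into thrombin, and thrombin makes fibrin. The transglutaminase F13 then crosslinks fibrin, with F13B as the carrier subunit. Protein C (PROC) and its cofactor protein S (PROS1) hold the cascade back by cleaving F5 and F8, and plasminogen (PLG) becomes plasmin, which dissolves the clot. Of the histone marks, H3K4me3, H3K9ac and H3K27ac are known from active promoters, H3K27ac also from enhancers, and H3K27me3 and H3K9me3 from silent chromatin.

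The hepatocyte identity of the line was checked first. ALB, TTR, APOA1, APOB, SERPINA1, TF and HNF4A, 7 of 7 hepatocyte markers, had a mean FPKM of 64.6 or more. AFP and GPC3, known from fetal liver and liver cancer, had 3798 and 1331. The leukocyte markers PTPRC and CD3E and the platelet gene PF4 were listed at 0, and the endothelial markers PECAM1, CDH5 and VWF ranged from 0.137 to 0.693. The exceptions were CD68 with 543, whose coordinates are shared by 9 loci, ACTA2 with 33.9, SPP1 with 436 and COL1A2 with 1.16. ITGA2B, COL1A1 and KRT7 were at 0.0702, 0.164 and 0.109.

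Promoter sequences of 4 genes are given first, because they hold matches to liver factor motifs and stand for both chromatin states described below. F10 and PROS1 carried the trivalent mark at their start, and F13B and PLG did not. Each sequence runs from 250 bases before to 20 bases after the start that RefSeq gives in GRCh38.p14, which is not the build of the data, and capitals mark the motif matches.
F10, chr13:113122549-113122818, plus strand: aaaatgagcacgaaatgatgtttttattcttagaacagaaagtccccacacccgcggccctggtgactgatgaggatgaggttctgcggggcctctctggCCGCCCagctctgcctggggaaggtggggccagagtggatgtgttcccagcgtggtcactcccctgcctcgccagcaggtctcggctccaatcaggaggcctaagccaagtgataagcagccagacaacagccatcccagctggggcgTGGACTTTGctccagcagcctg
PROS1, chr3:93973877-93974146, minus strand: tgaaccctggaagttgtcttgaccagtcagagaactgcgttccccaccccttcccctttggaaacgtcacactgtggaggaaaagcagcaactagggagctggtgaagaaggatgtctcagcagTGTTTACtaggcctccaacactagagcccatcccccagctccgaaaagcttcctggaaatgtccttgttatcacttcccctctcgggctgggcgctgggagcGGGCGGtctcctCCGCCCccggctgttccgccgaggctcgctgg
F13B, chr1:197067241-197067510, minus strand: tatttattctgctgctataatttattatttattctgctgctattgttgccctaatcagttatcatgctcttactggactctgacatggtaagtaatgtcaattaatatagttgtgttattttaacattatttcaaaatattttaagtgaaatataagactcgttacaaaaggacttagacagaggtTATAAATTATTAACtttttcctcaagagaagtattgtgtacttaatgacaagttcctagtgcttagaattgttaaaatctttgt
PLG, chr6:160701943-160702212, plus strand: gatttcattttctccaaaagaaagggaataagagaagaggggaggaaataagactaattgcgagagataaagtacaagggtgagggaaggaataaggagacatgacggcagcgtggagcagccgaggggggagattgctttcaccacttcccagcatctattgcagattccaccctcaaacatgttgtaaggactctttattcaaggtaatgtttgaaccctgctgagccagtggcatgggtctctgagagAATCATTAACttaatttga
Motifs were searched on both strands in windows of 250 bases before to 50 bases after the start, for all 10 genes and for 35116 RefSeq promoters. An HNF4 motif, CAAAGNNCA, was found in F10 only, on the opposite strand from position -2, and 5.28% of all promoters held one. HNF1 motifs were found in F13B from position -60 and in PLG from position 2, and 0.322% of all promoters held one. From a second start that RefSeq gives for PLG, the same match lay at position -50. In F13B the match overlapped a TATA box, TATAAA, from position -64, a motif held by 11.5% of promoters. A FOXA motif, TGTTTAC, was found in PROS1 from position -126, against 3.42% of all promoters. GC boxes, GGGCGG, were found in PROS1 from positions -24 and -12 and in F10 from position -150, against 45.0%. A C/EBP motif, TTGCNNAA, was found in a second promoter that RefSeq gives for PROC, from position -220, and in none of the other windows, against 10.5%. The windows of F2, F5, F7, F11 and F12 held none of these motifs. CpG dinucleotides numbered 18 in PROS1, the most of the 10 genes, 10 in F10, 8 in the first promoter of PROC, 7 in F5, 6 in F2 and F7, 5 in PLG, 3 in F12, 2 in F11 and 1 in F13B. The median of all promoters was 14, so PROS1 alone was above it. A match is a description of letters in the window and not a measured binding site.

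Prothrombin mRNA was the most abundant of the 10 transcripts and F13B mRNA the least, and the levels in between fell into a group above an FPKM of 7 and a group below 3. Levels are set side by side here as FPKM, which is per transcript length, and the order of the genes rests on this reading of the unit. F2, which encodes the precursor of thrombin, had 145 FPKM in run 1 and 139 in run 2. PROS1, the cofactor of protein C, had 50.6 and 52.5, and PROC, the anticoagulant protease precursor, had 47.7 and 45.1. F10, the precursor of the protease that cleaves prothrombin, had 31.7 and 32.4. F5, its cofactor, had 30.2 and 28.6. In these 5 genes of the common arm and its control the lowest value of either run was 28.6.

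F11, a precursor of the intrinsic arm, had 23.9 FPKM in run 1 and 23.4 in run 2. F7, the precursor that pairs with tissue factor, had 7.75 and 7.66. The low group held PLG with 2.62 and 2.14, F12 with 2.28 and 2.18, and F13B with 1.04 and 0.929. Of neighbours in the order of means, the runs of PLG and F12 overlapped and the other 8 pairs did not. The steps were largest from F7 to PLG, 3.24-fold, from F11 to F7, 3.07-fold, and from F2 to PROS1, 2.75-fold. The smallest steps whose runs did not overlap were from F10 to F5, 1.09-fold, and from PROS1 to PROC, 1.11-fold, and with 1 sample the order of such pairs has no replicate check. The runs differed most in PLG, by 20.4% of the mean, with run 2 lower, followed by F13B with 11.7%, and by 5.46% or less in the other genes.

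**Figure D1:**
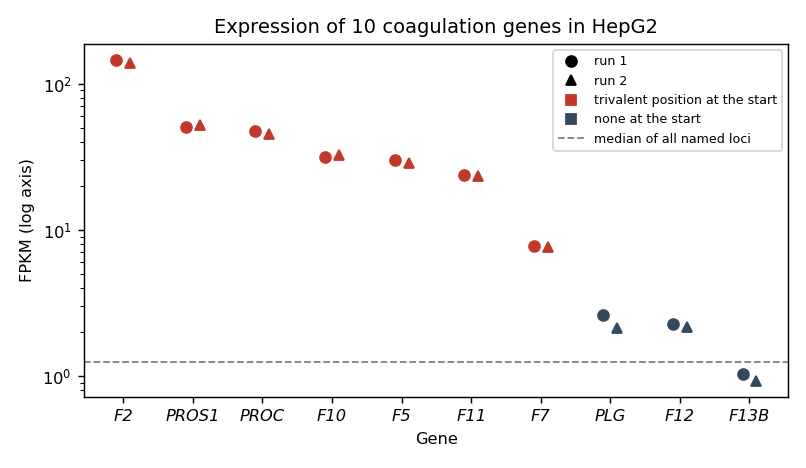
FPKM on a log axis of each of the 10 genes, ordered by mean, in run 1 (circles) and run 2 (triangles) of 1 RNA-Seq sample. Genes with at least 1 trivalent nucleosome position within 2 kb of the start are red and the others are dark blue, and the dashed line is the median of all named loci, 1.24; F13B is the gene whose runs lie below it.

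By mean FPKM, 9 of the 10 genes reached 1, and F13B, at 0.987, was just below. Of all named loci, 51.3% reached 1. All 10 reached 0.1, as did 63.4% of named loci, and 7 reached 5, against 38.6%. The median of the 10 genes was 26.5 and that of all named loci 1.24. Named loci are rows, so a gene can enter that median more than once, while each of the 10 genes enters by 1 row. F2 stood at the 97.8th percentile of named loci, PROS1 at the 93.1st, PROC at the 92.2nd, F10 at the 88.7th, F5 at the 87.7th, F11 at the 85.0th and F7 at the 67.4th. PLG, F12 and F13B were near the middle, at the 54.3rd, 53.7th and 48.6th percentiles.

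F10 and PROC were each listed in a second row with the same coordinates, numbered with the loci of the minus strand, while both genes lie on the plus strand. The second row of F10 had 1.29 FPKM in run 1 and 1.84 in run 2, 4.88% of the first row by the means. The second row of PROC had 2.12 and 2.31, or 4.77%. The values above are those of the first rows. How strand was used in counting is not given in the sources used here, so reads of a gene and of a transcript opposite to it may not be fully separated.

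Each gene's chromatin was read from nucleosome positions, listed in the hg19 build, that either carry a mark or do not. A position with H3K4me3, H3K9ac and H3K27ac and no other mark is called trivalent. The start of a gene is the end of its listed locus that its strand puts first, and distances are from there to the midpoint of a position. Peak heights and read counts are not in the lists, so the depth behind a single mark is unknown, and a position without a mark is one at which no peak passed the authors' filters.

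Trivalent positions were found within 2 kb of the start in the 7 genes with the highest FPKM and in none of PLG, F12 and F13B. Of all named loci with a strand, 42.2% had at least 1. F2 and F5 had 5 each, PROS1 had 4, F10 and PROC had 3 and F7 and F11 had 2. At least 3 were thus found in 5 of the 10 genes, against 27.1% of named loci. Over the 190 nucleosome positions within 2 kb of the 10 starts, 24 were trivalent, or 12.6% (95% Clopper-Pearson interval 8.26 to 18.2, counting error only). The interval treats each position as independent, while the 24 lay in 7 genes, so it does not measure the spread between genes. The share around the starts of 13662 named loci that share their coordinates with no other locus was 7.77%. F2, F10, F11 and PROC are not among these loci, since each shares its coordinates.

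The trivalent positions lay almost entirely inside the genes. Of 24, 23 were downstream of the start and 1 upstream, in F5. Counted by locus, F5 alone of the 10 genes had at least 1 upstream, as had 18.9% of all named loci with a strand. That share includes loci without any trivalent position. Among the named loci with coordinates of their own, 75.2% of trivalent positions within 2 kb were downstream. In F2, 5 trivalent positions ran from 347 to 1282 bp downstream, followed by 1 with H3K9ac alone at 1424 and 1 with H3K4me3 alone at 1647. No position upstream of F2 within 10 kb was marked. PROS1 had 4 trivalent positions from 49 to 774 bp and H3K4me3 alone at 1056. PROC began with H3K4me3 alone at 56 bp, had 3 trivalent positions from 378 to 771 and ended with H3K4me3/H3K9ac at 971. In these 3 genes, the most expressed of the 10, the marks at the start were on the downstream side only.

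F5 was the gene whose trivalent positions reached over the start. They lay at -307, 23, 453, 738 and 1683 bp, with H3K4me3/H3K9ac at 843 and H3K4me3 alone at 1016. F11 carried H3K4me3 at 8 positions from 134 to 1426 bp, the most of the 10 genes, but only those at 454 and 744 were trivalent. Of the others, 5 had H3K4me3 alone and 1 had H3K4me3/H3K27ac. F11 thus combined the largest number of H3K4me3 positions with as few trivalent positions as F7.

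F7, F10 and F11 had acetylated positions without H3K4me3 just before the start. In F7, H3K27ac alone was found at -382, -212 and -67 bp, next to trivalent positions at 288 and 498. In F10, H3K9ac/H3K27ac was found at -535 and -407 bp, before trivalent positions at 203, 648 and 898 and H3K4me3/H3K9ac at 1008. In F11, H3K27ac alone was found at -376 bp. F13B, which carried no H3K4me3, had its single marked position at -1114 bp with H3K27ac alone. With the H3K9ac position of F2, 5 of the 10 genes had such a position within 2 kb, against 18.8% of named loci. Of these 8 positions, 7 were upstream, while 45.6% of such positions around the starts of loci with their own coordinates were downstream.

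**Figure D2:**
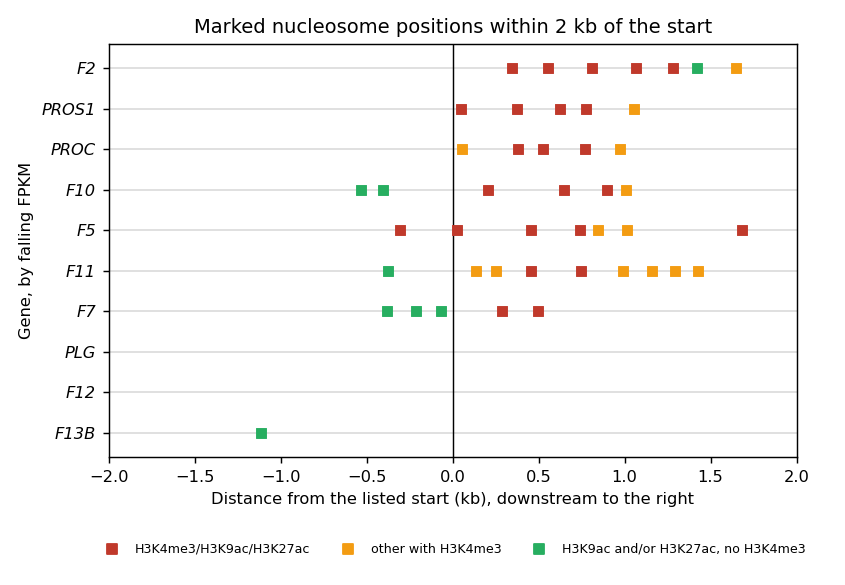
Marked nucleosome positions within 2 kb of the listed start of the 10 genes, ordered by falling FPKM, with distance in kb on the x axis and downstream to the right. Red squares are trivalent positions, orange squares other positions with H3K4me3 and green squares positions with H3K9ac or H3K27ac without H3K4me3; 23 of 24 red squares lie to the right of the start, and the rows of PLG and F12 are empty.

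PLG and F12 had 0 marked positions within 2 kb of the start, among 22 and 21 nucleosome positions there. Of all named loci, 39.2% had none. H3K27me3 and H3K9me3 were at 0 of the 190 positions around the 10 starts. Around the starts of loci with their own coordinates, 0.941% of positions carried either mark. Counted by locus, 9.26% of named loci had at least 1 such position within 2 kb. The 3 genes without a trivalent start were thus also without a silencing mark there, as were all but 9.26% of named loci.

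The level of expression was set beside this, in ranges taken from the 10 genes after their values were seen. Of 661 loci with their own coordinates and a mean FPKM from that of F13B to that of PLG, 56.3% had at least 1 trivalent position within 2 kb and 15.3% had no mark. Among all 1252 named loci of this range with a strand, shared coordinates included, 47.9% had a trivalent position. None of F12, F13B and PLG had a trivalent position, and F12 and PLG had no mark. Of 3809 such loci with a mean FPKM from that of F7 to that of F2, 90.9% had at least 1 trivalent position, as had all 7 genes in this range. F2, F10, F11 and PROC share their coordinates with another row, and with shared coordinates included the share was 77.4%. Of the 3462 loci of this range with their own coordinates and a trivalent position, 53.5% had none upstream. So had 6 of the 7 genes, all but F5, though F2, F10, F11 and PROC are not in that set. With 3 and 7 genes these counts are descriptions only.

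**Figure D3:**
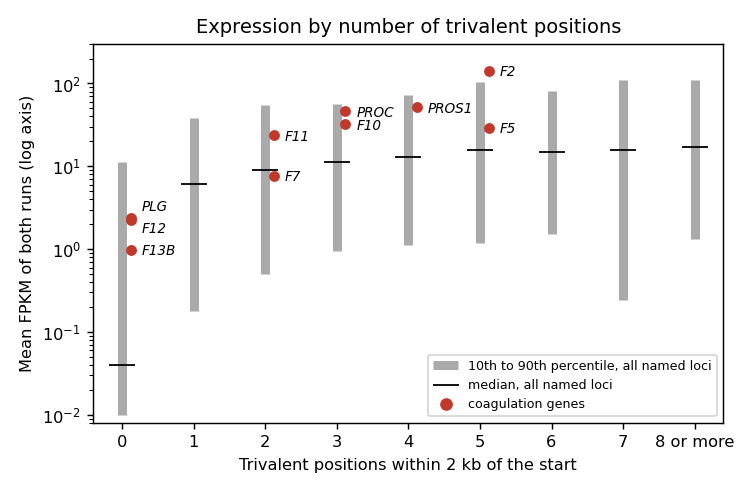
Mean FPKM of both runs (log axis) against the number of trivalent positions within 2 kb of the start, for the 10 genes (red points with names) and for all named loci with a strand (grey bars from the 10th to the 90th percentile, black ticks at the median; 0 is drawn at 0.01). PLG, F12 and F13B lie within the bar of loci without a trivalent position, whose median is 0.0395, and F2 lies above the bar at 5, which ends at 104.

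The 3 low genes were well above the median of loci without a trivalent position, which was 0.0395 among 12778 loci with a 90th percentile of 11.4. F7, at 7.70, was below the median of 9.10 for loci with 2 trivalent positions, and the other 6 genes were above the median for their number. F2, at 142, was above the 90th percentile of 104 for loci with 5.

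Nucleosome positions themselves were listed at all 10 starts. Between 15 (F7) and 23 (PROC) positions lay within 2 kb of a start, and the 10th and 90th percentiles of loci with their own coordinates were 15 and 23. The largest gap between neighbouring midpoints near the start was measured for positions within 500 bp and the next position beyond on either side. It was 627 bp in F7, from 498 to 1125 bp downstream, 488 in F2, from -821 to -333, 445 in F10 and 430 in F5. It was 395 bp in F13B and between 313 and 327 in F11, F12, PROC, PROS1 and PLG. The median over 13653 loci was 375 bp, 442 for loci with a trivalent position and 320 for the others. The gap of 5 genes was thus below this median, PROS1, PROC and F11 with a trivalent start among them.

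Over the listed loci and 10 kb on either side, the 10 windows held 4588 nucleosome positions, 135 of them marked and 46 trivalent. H3K27ac was at 88, H3K4me3 at 67, H3K9ac at 66, H3K27me3 at 16 and H3K9me3 at 7. The windows of F7 and F10 overlap, since F10 starts 17.1 kb downstream of the start of F7, and 6 marked positions were counted in both. Counted once, 129 positions were marked and 43 were trivalent. Of the 135, 79 lay nearer to the start of the coagulation gene than to that of any other named gene.

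Several of the remaining marks lay at the starts of other genes. The locus listed for F2 (chromosome 11, 46740549 to 46867980) is 127432 bp long and shared by 3 loci, while RefSeq gives F2 a length of 20294 bp. Its far end is the start of CKAP5, a microtubule protein with 37.3 FPKM in run 1 and 37.4 in run 2, and 7 marked positions, 3 of them trivalent, lay within 2 kb of it. SNORD67 is listed at the same coordinates and at 0. F12 (chromosome 5, 176829135 to 176836629, minus strand) had PFN3, listed at 0, as its neighbour, and F7 had LOC100289410 with 2.97 and 2.35 and no mark within 2 kb of its start.

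F12 had no mark at its start but a pair of trivalent positions inside the gene, 5343 and 5563 bp downstream. They were the only marked positions of its window, among 144, and the nearest start of another named gene, PFN3, was 3.43 kb away. F12, which encodes the contact factor that starts the intrinsic arm, thus had trivalent positions inside its listed locus. Both were nearer to the start of PFN3 than to that of F12.

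F10 (chromosome 13, 113777088 to 113808343) had the most marked positions of the 10 windows, 27 of 259. Those at its start were 6. H3K27ac alone was at 3 positions from 16.3 to 16.9 kb downstream. A further 16 marked positions, 8 of them trivalent, lay from 27.3 to 31.0 kb, at the far end of the listed locus of 31256 bp. RefSeq gives F10 a length of 26731 bp, so all 16 lay beyond the gene by that length. Of the starts of other genes, that of PROZ, the protein Z gene, was nearest, 3.36 kb from the closest of them. It was nearer to them than the start of the first row of F10. The second row of F10, numbered on the minus strand, starts at position 113808343, nearer to this stretch than PROZ does. Within 2 kb of it 10 positions were marked, 8 of them trivalent, and all are among the 16 above. These 8 are more than the 3 at the start of F10 itself, while the FPKM of the second row was 4.88% of that of the first. The second row of PROC starts at 128186869, and 0 of 23 positions within 2 kb of it were marked. A pair of trivalent positions at 35.9 and 36.0 kb lay at least 1.55 kb beyond the listed start of PROZ and CUL4A, which share their coordinates and had a mean FPKM of 4.35 and 25.1.

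Stretches of acetylation without H3K4me3, defined as marked positions at most 1 kb apart, or single positions of this kind, were found away from the start in F11, PROC, F5, F10 and F2. Upstream of F11 (chromosome 4, start at 187186967), 8 positions from -5.65 to -4.17 kb carried H3K27ac, 3 of them with H3K9ac, and none carried H3K4me3. The start of KLKB1, the prekallikrein gene, was the nearest other start, 46.6 kb away. Downstream of PROC (chromosome 2, 128175765 to 128186869), 6 positions from 19.4 to 20.7 kb carried H3K27ac, 1 of them with H3K9ac, beyond the end of the gene. A single position with H3K27ac lay at -3169 bp. Within F5 (chromosome 1, 169481043 to 169555969, minus strand), H3K27ac alone was at 2 positions from 9.59 to 9.93 kb and at 2 from 16.8 to 17.0 kb, and H3K9ac alone was at 35.4 kb. A group of 3 positions with H3K27ac, 1 of them with H3K9ac, lay from 77.9 to 78.3 kb, past the end of F5. In the locus listed for F2, H3K9ac alone was at 25037 bp, past the RefSeq length.

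PROC also had 4 positions with H3K4me3 from -9.97 to -9.49 kb, 3 of them trivalent. The nearest other listed start, that of MAP3K2, was 9.48 kb from the closest of them.

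**Figure D4:**
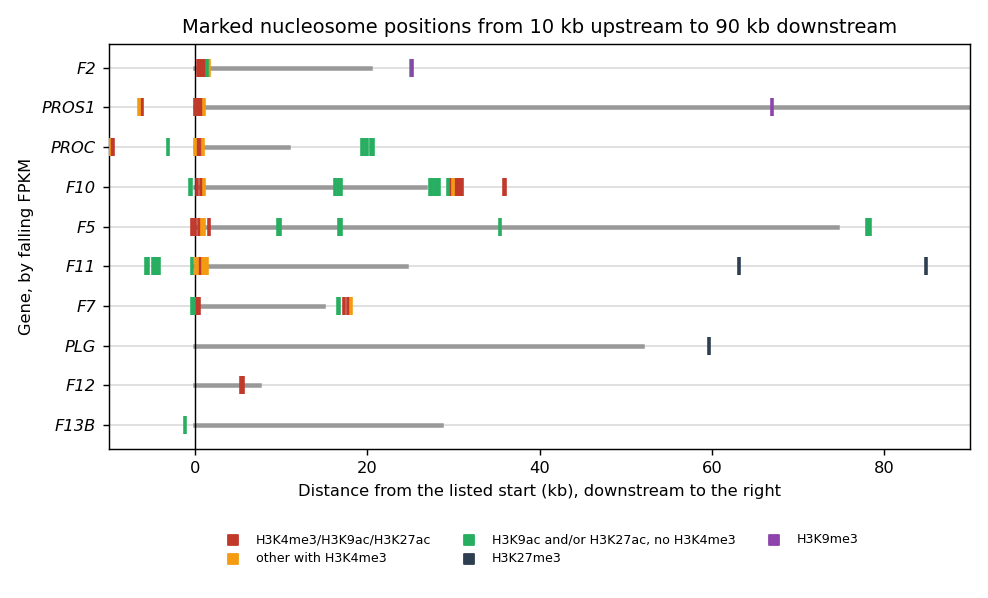
Marked nucleosome positions from 10 kb upstream to 90 kb downstream of the listed start of the 10 genes, with distance in kb on the x axis, colours as before, dark blue for H3K27me3 and purple for H3K9me3. Grey bars show the RefSeq length of each gene drawn from the start; marks beyond 90 kb in the windows of F2, F11 and PROS1 are not drawn. Green stretches stand upstream of F11 and downstream of PROC, and a stretch of green and red squares stands past the grey bar of F10.

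Silencing marks lay far from the starts. H3K27me3 was at 0.349% of the positions of the 10 windows, against 0.185% of all 14217405 positions listed, and H3K9me3 was at 0.153%, against 0.243%. Without the window of F11 the shares were 0.0910% and 0.0606%. H3K27me3 was at 13 positions and H3K9me3 at 5 of the window of F11, the nearest of them 63.1 kb downstream. The locus listed for F11 is 235265 bp long and is shared with LOC285441, which had an FPKM of 7.87 and 6.96, while RefSeq gives F11 a length of 24522 bp, so all 18 lay beyond the gene by that length. PROS1 (chromosome 3, 93591881 to 93692975, minus strand) had H3K9me3 at 1 position 67.0 kb downstream, inside the gene, and H3K27me3 at 2 positions past its end. The locus listed for F2 had H3K9me3 at 1 position 25154 bp downstream, next to the H3K9ac position at 25037 bp. It too lay beyond the gene by its RefSeq length of 20294 bp. PLG (chromosome 6, 161122825 to 161175199) had H3K27me3 at 59.7 kb, beyond its end, as the only marked position among 395. F13B (chromosome 1, 197008321 to 197036397, minus strand) likewise had 1 marked position, among 239.

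The members thus differed in marked share over the whole window. Of the positions in the window, 10.4% were marked in F10, where 18 of 27 lay beyond its RefSeq length, 8.99% in PROC and 6.36% in F7, where 6 of 11 were at F10. The share was 3.01% in F5, 2.71% in F11, 2.15% in F2, 1.61% in PROS1, 1.39% in F12, 0.418% in F13B and 0.253% in PLG. Of the marked positions, 18 of 35 in F11 and 10 of 17 in F2 lay beyond the RefSeq length of the gene. The 2 of F12 were nearer to the start of PFN3. Shares depend on window length, which ran from 27.5 kb for F12 to 255 kb for F11. Positions per kb varied less, from 4.93 in F7 to 5.72 in PROC.

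Of 30 other genes of coagulation and fibrinolysis, 22 had a mean FPKM of at least 1, against 51.3% of named loci. A trivalent position within 2 kb of the start was found in 12 of the 30, against 42.2% of named loci with a strand. Their median FPKM was 12.1. The highest were FGG with 466 and FGA with 211, which encode fibrinogen chains, and the inhibitors SERPINA5 with 192, SERPINF2 with 162 and SERPINC1, the antithrombin gene, with 153. All 5 had a trivalent position. The lowest were F13A1, which encodes the catalytic subunit of F13, and THBD, the thrombomodulin gene, both listed at 0, VWF with 0.151, F8 with 0.253 and PLAT, the tissue plasminogen activator gene, with 0.465. None of these 5 had a trivalent position.

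A few others of the list were singled out after their values were seen. F9, the precursor between F11 and F10, had an FPKM of 0.873 and 1.04 and no marked position at its start, like F12 and PLG. GGCX and VKORC1, which serve the vitamin K dependent carboxylation of F2, F7, F10, PROC and PROS1, had 32.8 and 116 with 5 and 4 trivalent positions. TFPI, the inhibitor of the F7 and tissue factor complex, had 129 and no marked position at its listed start, which it shares with another locus. FGB had 56.6 with no marked position within 2 kb and coordinates of its own. All 12 genes of the list with a trivalent position had an FPKM of at least 1, as had 8173 of the 9315 named loci with one. Of the 22 genes of the list with such an FPKM, 10 had no trivalent position. Of the 9 members with an FPKM of at least 1, PLG and F12 had none, or 22.2%, and of all named loci with a strand and such an FPKM 28.0% had none.

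Of the complement genes chosen, C4A was not found among the named loci. The other 19 were analysed and all 19 had an FPKM of at least 1, against 51.3% of named loci. Their median was 7.92, or 6.46 over the 18 rows that hold them. C3, the central complement protein, had 298, and C2 and CFB share a row with 145. C2 and CFB thus have 1 start, and a trivalent position was found at 8 of 18 starts. For the 10 coagulation genes the number was 7 of 10, and for all named loci 42.2%.

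**Figure D5:**
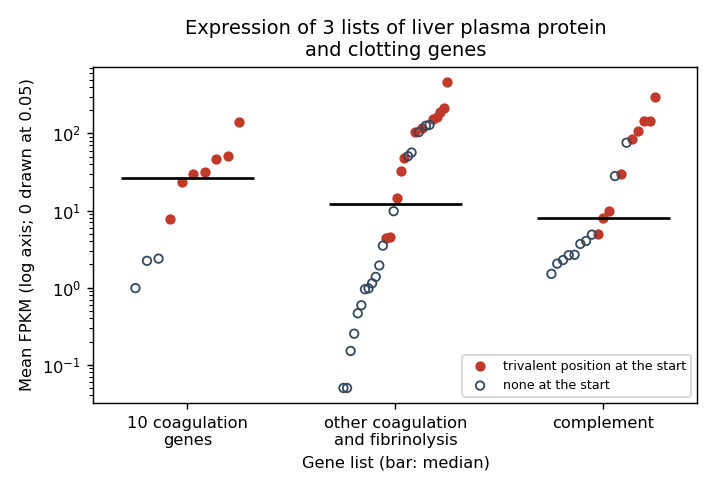
Mean FPKM (log axis, 0 drawn at 0.05) of the 10 coagulation genes, 30 other genes of coagulation and fibrinolysis and 19 complement genes (C2 and CFB with 1 shared value), each sorted from left to right, with a bar at the median (26.5, 12.1 and 7.92). Filled red points have a trivalent position within 2 kb of the listed start and open points have none.

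The named loci nearest to the median profile of the 10 genes, by Euclidean distance over 6 standardised measures (log2 FPKM and the number of positions with each of the 5 marks within 2 kb), were GCH1, the row of GPS2 and NEURL4, and GTF3C2, at distances of 0.161, 0.163 and 0.163 among 22093 loci. GCH1 had an FPKM of 23.6 with 5 positions with H3K4me3, 3 with H3K9ac and 4 with H3K27ac. The other two rows had 30.4 and 22.8, and 4, 3 and 4 positions.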

How the data were processed

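HepG2 was measured in 7 samples, 1 per assay. The authors aligned MNase-Seq and ChIP-Seq reads to hg19 (the submitters' notes name BWA), called nucleosome positions with DANPOS and peaks at these positions with NUCLIZE (P value and false discovery rate at most 0.01, at least 4-fold), and deposited coordinates only. For RNA-Seq the notes name, among others, TopHat2 2.1.0, Bowtie and HOMER 4.7, without their roles. The authors deposited values per locus, read here as FPKM from the Cuffdiff layout of the table, while the paper writes RPKM. They sum to 857059 in run 1 and 982212 in run 2, and read depth is unknown. Columns of the authors' own comparison of the runs (fold change, p and q) were not used.

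Peaks were joined to positions by identifier, found for all peaks. The gene column, split at commas, held the symbols in 12 rows, and the row numbered on the annotated strand was used. Strand came from RefSeq promoters by symbol, or else from the order of locus numbers; of 8593 loci with their own coordinates and both sources 8541 had the same strand, as did all 10 genes. Named loci have a symbol, a usable status and a place on chromosomes 1 to 22, X or Y. The start from the annotation was not run as an alternative, since its build is GRCh38, and no hg19 genome or protein table was used here.

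Named are the 10 members, neighbours starting within 10 kb, the 5 highest and 5 lowest of the other coagulation genes, the 3 highest complement genes and the 3 loci nearest in profile; others are named as chosen afterwards, and 1 neighbour is not reported here. The members and lists were chosen with earlier results of these data known. Counting was tested on simulated data. Alternatives were single runs, FPKM limits, a pseudocount of 1, a filter at 0.1, other flanks and windows, matching by overlap, strand by order, and a background of loci with their own coordinates. Scripts were run in Python 3.11.15 with pandas 2.3.3, numpy 2.4.6, matplotlib 3.10.9 and scipy 1.17.1.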

Additional observations from a re-analysis of the deposited data

How the results depend on the processing

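The median FPKM of the 10 genes was 4.40 above that of all named loci on the log2(FPKM + 0.01) scale. The difference was 3.61 with a pseudocount of 1, 1.69 against loci with an FPKM of 0.1 or more and 5.81 against loci with 1 symbol and their own coordinates. The sum of marked positions over the windows was 135, and 79 without those nearer to the start of another gene. It ranged from 90 to 161 with flanks of 0 to 20 kb, and was 135 by overlap, 109 with genes cut to their RefSeq length and 129 with each position once, both chosen after seeing the data. With windows of 1, 2 and 5 kb, 7 genes had a trivalent start, with 21 to 24 trivalent positions. Strand by order was the same for all 10 genes, so that setting could not change these counts. In run 1 F13B passed an FPKM of 1, so that 10 genes did. No paired analysis was possible because there is 1 sample per assay. The runs give the only spread, and the depth behind single marks is unknown.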
